A study of Mus musculus with 2 samples.

Results

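Neighbouring modification sites were examined in mouse retinal organoids at day 6, as pairs of listed N6-methyladenosine (m6A) positions that follow each other on a transcript no more than 20 nt apart. A pair was formed in replicate 2 from consecutive positions of the same transcript version, with at least 20 reads at each position, and 1 transcript was kept per gene name (the transcript with the most sites). This gave 667 pairs in 548 genes, out of 10823 consecutive pairs at any distance. Of these, 190 pairs in 156 genes also had 20 reads at both positions in replicate 1, out of 2683 such pairs at any distance. For 254 of the others replicate 1 listed both positions with fewer reads, and for 223 it did not list both. The choice of pairs used position and coverage only, and the fractions were not used.

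Retinal organoids are made in vitro by letting pluripotent stem cells aggregate and take on eye-field fates, and the Rx:GFP line reports the eye-field gene Rax with a green fluorescent protein. Both libraries came from wild-type (WT) Rx:GFP organoids given AGN at 0.1 µM over 6 days, so they form 1 group with n = 2 and no untreated or mutant group was compared. Poly(A) RNA was read as native RNA on nanopores with the RNA002 kit, 1 flow cell per library. Nothing states that the replicates came from separate cultures, so their spread may be technical. All 6 eye-field markers (Rax, Six3, Six6, Lhx2, Pax6 and Otx2) had listed sites in both libraries, with a highest coverage of 111 and 261 reads. None of 7 pluripotency, 4 mesoderm, 4 endoderm and 3 neural crest markers had one in either. Of 3 markers of retinal pigment epithelium, 1 was listed in replicate 1 (at most 6 reads) and 2 in replicate 2 (at most 14 reads).

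m6A is placed on adenosines of nascent messenger RNA by a methyltransferase complex whose catalytic subunit is METTL3. The complex prefers the DRACH sequence, in which the methylated A precedes a C. Reader proteins of the YTH family bind the mark and influence how long an mRNA lasts and how it is translated. Neighbouring sites on the same transcript lie close enough for the same reads to cross both, so their levels can be set side by side within a transcript. Whether the fractions of sites a few nt apart were measured independently of each other was not tested. The deposited fraction modified runs from 0 to 1 and is given per position. The reads it counts were not stated, and how often a single molecule carried both marks was not analysed here.

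The tables name 4 motifs of 5 bases, given here as DNA: AGACT, whose first base is an A, and the trio GGACA, with A at its end, GGACC, with C, and GGACT, with T. Which base of the motif a listed position marks was not given, and the spacing of a pair does not depend on it. By their sequences, none of the 4 motifs can start 1 to 3 nt after another, so no pair was that close. At 4 nt the motifs must share a base, which only GGACA followed by AGACT allows. All 17 pairs at 4 nt therefore had this order, with 9 bases holding both motifs. At 5 nt, 38 pairs had motifs that touched without a base between them. The sequences below are those of the touching or overlapping pairs, shown because no base separates the sites of these pairs, with the upstream motif in capitals and the rest of the downstream motif in lower case.
Overlap of 1 base, 16 pairs printed: GGACAgact
GGACA repeated, 8 pairs: GGACAggaca
GGACT repeated, 8 pairs: GGACTggact
GGACA before GGACC, 6 pairs: GGACAggacc
AGACT before GGACT, 4 pairs: AGACTggact
GGACT before GGACA, 3 pairs: GGACTggaca
GGACT before GGACC, 3 pairs: GGACTggacc
AGACT before GGACA, 2 pairs: AGACTggaca
Glul, 1 pair: GGACTagact
A further pair with the 9-base overlap lay on chromosome 18.

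The upstream (5′) site of a closely spaced pair was listed at a high fraction. To set motifs side by side, the median fraction of the same motif in the same library was subtracted from each fraction. In replicate 2 those medians were 0.667 at GGACA, 0.263 at AGACT, 0.231 at GGACC and 0.23 at GGACT. In replicate 1 they were 0.674, 0.267, 0.219 and 0.25. On this scale the median of the upstream sites in replicate 2 was 0.276 at 4 nt (17 pairs), 0.323 at 5 nt (38 pairs) and 0.305 at 6 nt (46 pairs). At 7 nt it was -0.0837 (35 pairs), and from 8 to 20 nt the medians ran between -0.14 and 0.101 with no such block of high values. In pairs with 20 reads in replicate 1, its upstream medians were 0.282, 0.31 and 0.326 at 4, 5 and 6 nt. From 8 to 20 nt they ran between -0.174 at 10 nt and 0.223 at 16 nt (4 pairs), with 0.208 at 19 nt (12 pairs). The downstream sites of replicate 2 had medians of 0.118, 0.0927 and -0.0589 at 4, 5 and 6 nt.

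**Figure D1:**
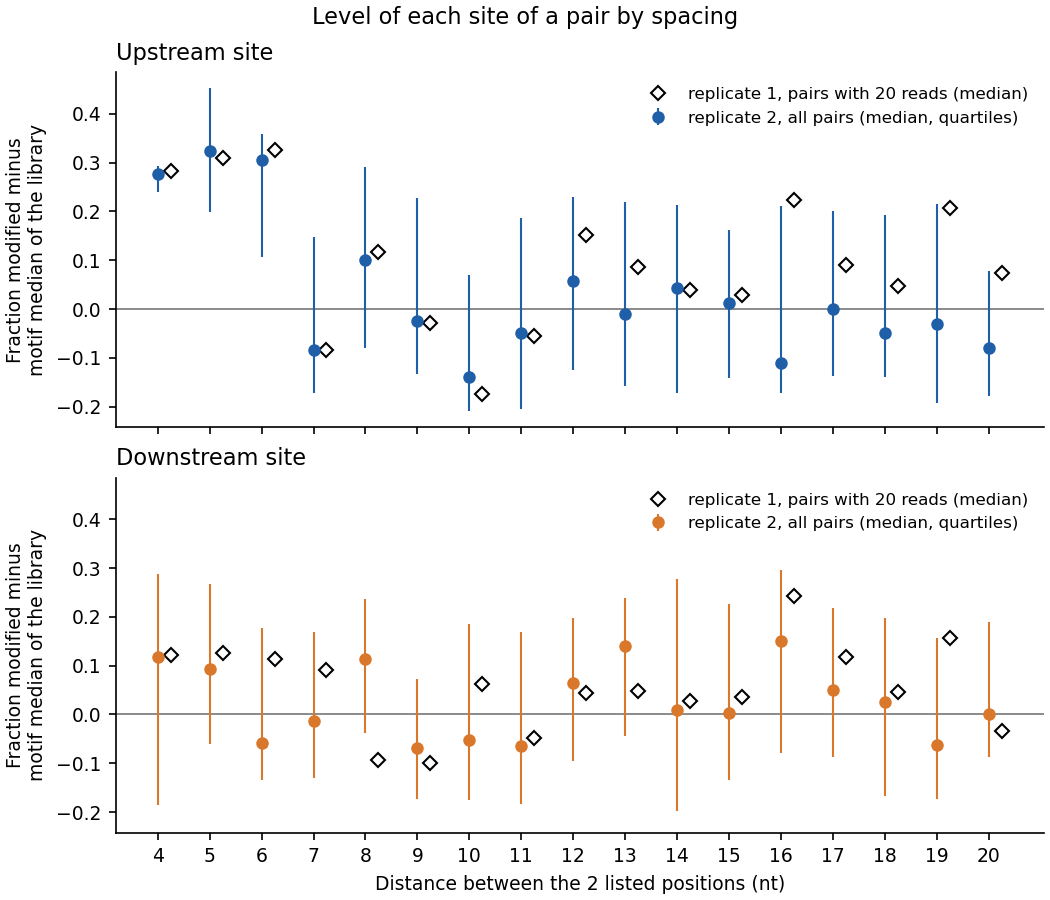
Fraction modified minus the library's median for the same motif, for the upstream site (upper panel) and the downstream site (lower panel), against the distance in nt. Filled points are medians of all pairs of replicate 2 with bars for the quartiles, and open diamonds are medians of the pairs with 20 reads in replicate 1. The upstream medians of replicate 2 lie at 0.276, 0.323 and 0.305 at 4, 5 and 6 nt and at -0.0837 at 7 nt.

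The spacings of 4 to 6 nt, grouped after their values had been seen, held 101 pairs. In replicate 2 the upstream fraction was the higher of the pair in 83 of them (82.2%, 95% Wilson interval 73.6% to 88.4%), against 49.5% of all consecutive pairs at any distance. Motifs were not balanced by side at 4 to 6 nt, with GGACA at 51 upstream and 22 downstream sites. In same-motif pairs at 4 to 6 nt the upstream site was the higher in 26 of 32 (81.25%, 64.7% to 91.1%). Among same-motif pairs at any distance the share was 47.2%. The upstream fraction exceeded the library median of its motif in 91 of the 101 pairs. At 7 to 20 nt the upstream site was the higher in 263 of 566 pairs (46.5%, 42.4% to 50.6%). In the 29 close pairs shared by both libraries, the upstream site was the higher in 26 in replicate 1 and in 26 in replicate 2. Its motif-adjusted median there was 0.297 in replicate 1 and 0.314 in replicate 2, a mean of 0.306 ± 0.0123 (SD, n = 2). The adjusted median of the downstream sites was 0.124 ± 0.00290 (SD, n = 2) in these 29 pairs, and in all 101 pairs of replicate 2 it was 0.0238, against 0.296 upstream. With 2 replicates an exact paired permutation test, two-sided, gave p = 0.5, the smallest it allows for this or any other value over replicates here. All 29 upstream sites lay above their motif's median in both libraries.

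Pairs with less coverage, none of them counted above, gave a second set of values for this spacing. They came from the same library, replicate 2. Of the 98 genes with such pairs, 7 also had better covered ones. In 102 pairs at 4 to 6 nt whose lower coverage in replicate 2 was 10 to 19 reads, the adjusted medians were 0.249 upstream and 0.0332 downstream. The upstream site was the higher in 70 of them (68.6%, 59.1% to 76.8%). By spacing these were 17 of 17 at 4 nt, 21 of 42 at 5 nt and 32 of 43 at 6 nt. At 4 nt the motifs fix the order, with GGACA always upstream. At 5 nt the less covered pairs showed no side that was higher more often.

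The high upstream level was seen at each motif. At 4 to 6 nt in replicate 2 the upstream sites had a median fraction of 0.956 at GGACA (51 sites), 0.602 at GGACT (26 sites), 0.62 at GGACC (12 sites) and 0.458 at AGACT (12 sites). At 7 to 20 nt the upstream medians were 0.634 at GGACA (191 sites), 0.171 at GGACT (149), 0.241 at GGACC (120) and 0.286 at AGACT (106). All 33 upstream GGACA sites at 4 or 5 nt, where nothing separates the motifs, were above 0.667, with the lowest at 0.737 and the highest at 1. At 6 nt, with 1 base between the motifs, 13 of 18 were above it and the lowest was at 0.148. Downstream GGACA sites at 4 to 6 nt had a median of 0.712 (22 sites), of which 13 exceeded the library median.

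In the 9-base overlap GGACAgact the GGACA was the higher in all 16 printed pairs. Its fraction ran from 0.8 to 1 with a median of 0.945 in replicate 2, while the AGACT that shares its last base ran from 0 to 0.889 with a median of 0.28. In the 7 of these pairs shared by both libraries, the upstream median was 0.957 in replicate 1 and 0.956 in replicate 2, and the GGACA was the higher in 7 of 7 in each. The downstream site thus spread more widely between genes than the upstream site.

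Armc10, which encodes an armadillo repeat protein of mitochondria (chromosome 5, 21850811 to 21867692, gene coordinates here and elsewhere as deposited, their build not settled), had both overlapping sites high. The GGACA at position 1409 of transcript ENSMUST00000072896.12 was at 0.958 (25 reads) in replicate 1 and at 0.956 (95 reads) in replicate 2, and the AGACT at 1413 was at 0.905 and 0.887. Cdkn2aipnl, whose product is a small protein with an XRN2-binding domain, had 0.936 and 0.938 at position 439 and 0.522 and 0.667 at position 443. Rtl8a, a gene derived from a retrotransposon Gag (X chromosome), had 1 and 0.987 at position 822 and 0.191 and 0.18 at position 826. The same 9 bases were thus listed with a downstream fraction of 0.896 ± 0.0125 in Armc10, 0.594 ± 0.102 in Cdkn2aipnl and 0.185 ± 0.00778 in Rtl8a (each SD, n = 2), 3 levels that did not overlap between the libraries. The upstream means were 0.957 ± 0.00163, 0.937 ± 0.00141 and 0.994 ± 0.00905.

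The largest excess of GGACA over another motif, among pairs with 50 reads in replicate 2 and 20 in replicate 1, was in Rtl8b, another gene of the same Gag-derived family, again in this overlap. Its GGACA at position 871 was at 0.971 over 37 reads and 0.96 over 76 reads, and its AGACT at 875 was at 0.0312 and 0.0441, a mean downstream minus upstream difference of -0.928 ± 0.0175 (SD, n = 2). Rtl8a and Rtl8b are near-identical copies, so reads may be divided between them and these values are not independent. Among the other shared overlaps the AGACT was at 0.5 and 0.552 in Ddx56, a DEAD-box helicase gene, at 0.389 and 0.533 in Ssbp3, a cofactor gene of LIM-homeodomain complexes, and at 0.25 and 0.0769 in Mars1, the methionyl-tRNA synthetase gene. In each of these the GGACA lay between 0.936 and 0.982 in both libraries.

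Where the motifs touched at 5 nt, the repeated motif GGACAggaca had both sites high. The upstream sites had a median of 0.979 and the downstream sites one of 0.816 over 8 pairs of replicate 2, and in 7 of the 8 the upstream was the higher. The best covered pair of all was of this kind, in Rpl7a, a protein of the large ribosomal subunit (chromosome 2). Position 191 of its transcript was at 0.985 in replicate 1, from 1170 reads, and at 0.981 in replicate 2, from 1999 reads. Position 196 was at 0.906 and 0.93. The downstream site was the lower in both libraries, by a mean difference of -0.0647 ± 0.0199 (SD, n = 2). In Ublcp1, a phosphatase gene of the nuclear proteasome, the same 10 bases gave 1 and 0.978 upstream and 0.786 and 0.6 downstream. In Arpc3, an Arp2/3 complex gene of actin branching, they gave 1 and 0.963 upstream and 0.61 and 0.775 downstream. Atad3a, an ATPase gene of the mitochondrial inner membrane, had 0.905 and 0.971 upstream and 0.615 and 0.586 downstream.

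GGACAggacc had a median of 0.936 upstream and 0.198 downstream over 6 pairs, with the GGACA higher in 6 of 6. Idh3g, a regulatory subunit gene of mitochondrial isocitrate dehydrogenase, showed a moderate gap, with 0.906 and 0.92 at position 1298 and 0.484 and 0.507 at position 1303. Abcf2, an ATP-binding cassette gene, had 0.92 and 1 against 0.357 and 0.205. The repeated GGACTggact was less one-sided, with 5 of 8 upstream sites higher and medians of 0.691 upstream and 0.383 downstream. Among its genes Ppp2r2a, a regulatory B subunit of protein phosphatase 2A, carried 3 such motifs in a row, GGACTGGACTGGACT, listed from position 1975 to 1985. Its fractions in 5′ to 3′ order were 0.79, 0.931 and 0.864 in replicate 1 and 0.686, 0.911 and 0.775 in replicate 2, so the middle site was the highest in both libraries.

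Glul, the glutamine synthetase gene, had 0.539 and 0.444 against 0.154 and 0 in its GGACTagact. In 3 of the 29 shared close pairs the downstream site was the higher. These were Tor1aip2 (0.364 and 0.278 upstream, 0.917 and 0.889 downstream), Chrac1 (0.762 and 0.84 upstream, 0.8 and 0.926 downstream) and the first pair of Ppp2r2a. They were all at 5 nt. Tor1aip2 encodes an activator of the endoplasmic reticulum ATPase torsin and Chrac1 a histone-fold subunit of a chromatin remodelling complex.

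At 6 nt a single base lies between the motifs, and 9 pairs were shared, in all of which the upstream site was the higher in both libraries. Sf3b1, a core subunit gene of the U2 small nuclear ribonucleoprotein (chromosome 1), had a fraction of 1 in both libraries at position 3652, over 35 reads and 82 reads, and 0.154 and 0.1 at position 3658. Its motifs are spaced as GGACAnGGACC, where n is a base that the tables do not give. Zfp207, a spindle-associated zinc-finger gene, had 1 and 0.986 against 0.333 and 0.483 in the same arrangement. Elof1, a transcription elongation factor gene, had 0.571 and 0.598 at a GGACC against 0.0328 and 0.0686 at the AGACT after it. Morf4l2, a chromatin protein gene, had 0.52 and 0.415 against 0.0380 and 0.0946 between 2 GGACT motifs. P4hb, the protein disulfide isomerase gene, and Stard7, a phosphatidylcholine transfer protein gene, were the ones with the smallest gaps. P4hb had 0.833 and 0.816 at an AGACT before 0.727 and 0.787 at a GGACA.

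**Figure D2:**
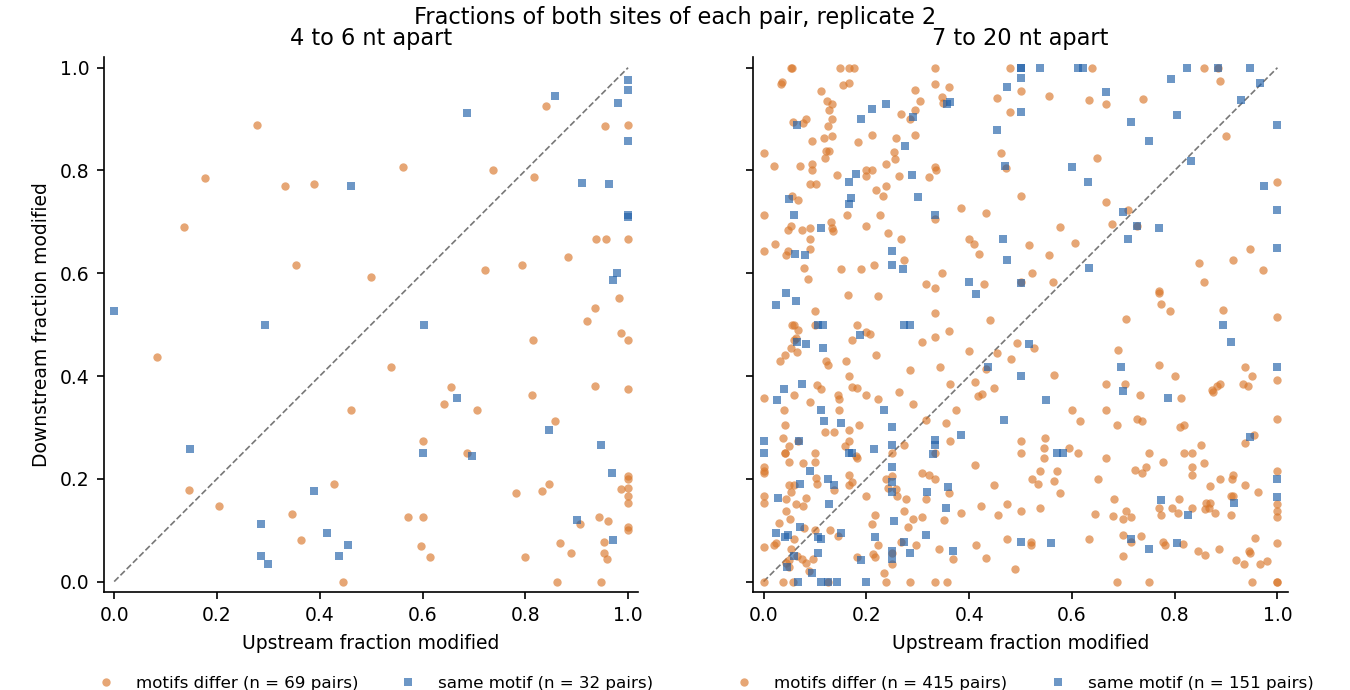
Fraction modified of the downstream site (vertical) against that of the upstream site (horizontal) in replicate 2, 1 point per pair, for pairs 4 to 6 nt apart (left, 101 pairs) and 7 to 20 nt apart (right, 566 pairs); circles are pairs of different motifs and squares pairs of the same motif. Most of the close pairs lie below the dashed line of equality (83 of 101), whereas the others lie on both sides of it (263 of 566 below).

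Over all spacings up to 20 nt, the fractions of a pair were far apart more often than not. The median absolute difference was 0.333 in the 667 pairs of replicate 2 (interquartile range 0.141 to 0.577). In the 190 shared pairs it was 0.367 in replicate 1 and 0.356 in replicate 2, a mean of 0.362 ± 0.00764 (SD, n = 2). Consecutive pairs 21 to 100 nt apart had a median of 0.281 ± 0.00940 (755 shared pairs) and those over 100 nt apart 0.301 ± 0.00127 (1738 shared pairs). A difference above 0.2 was counted as a call, and 448 of the 667 pairs were called in replicate 2 (67.2%, 63.5% to 70.6%), against 63.5% of all consecutive pairs at any distance. Both libraries called the same direction in 116 of the 190 shared pairs (61.1%, 54.0% to 67.7%), against 55.6% at any distance. These shares lie near those of all consecutive pairs, and the call itself was therefore common wherever sites follow each other.

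The direction within a pair was kept by the other library. Of the 128 shared pairs called in replicate 2, 126 had the same sign in replicate 1 (98.4%, 94.5% to 99.6%). The exceptions were Senp3, a SUMO protease gene, with 0.826 and 0.938 in replicate 1 against 0.848 and 0.621 in replicate 2, and Ncbp2, given further on. Across the 190 pairs the differences of both libraries had a Pearson's r of 0.955 and a Spearman's rho of 0.955, as a description, since sites of a gene share reads and transcript. The root mean square difference within a pair was 0.457 in replicate 1 and 0.444 in replicate 2, and the root mean square change of that difference between libraries was 0.135. Coverage differed little within a pair. It was equal at both sites in 570 of 667 pairs of replicate 2 and in 161 of 190 of replicate 1.

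**Figure D3:**
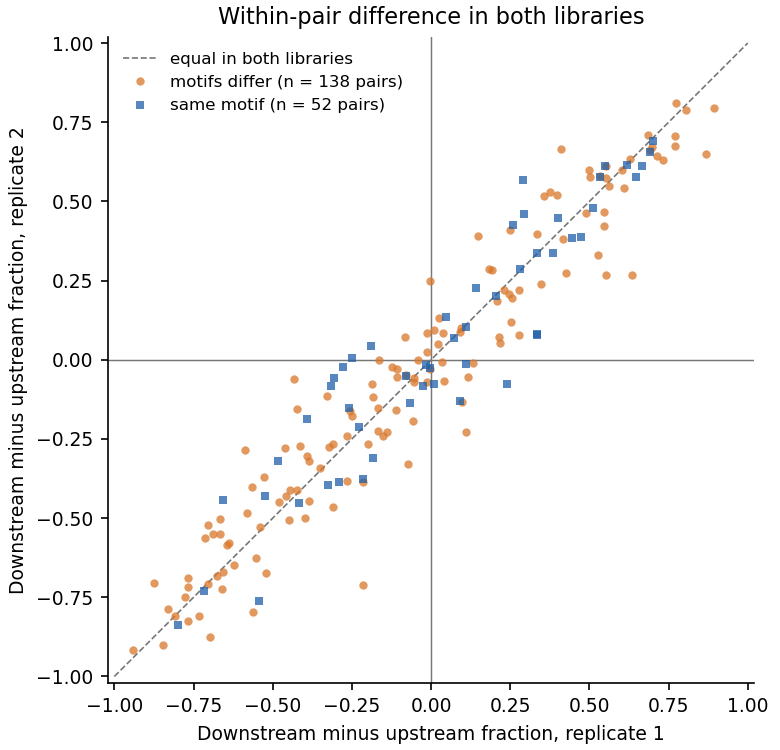
Downstream minus upstream fraction of each of the 190 shared pairs in replicate 2 (vertical) against replicate 1 (horizontal); circles are pairs of different motifs (138), squares pairs of the same motif (52), and the dashed line marks equal differences. Points follow the line (Pearson's r 0.955 across pairs), and 126 of the 128 pairs beyond 0.2 in replicate 2 have the same sign in replicate 1.

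Pairs of the same motif leave the motif out of the comparison. There were 183 of them, 52 shared. Their median absolute difference was 0.225 in replicate 2, and 102 differed by more than 0.2 (55.7%, 48.5% to 62.7%), against 57.6% of all consecutive same-motif pairs. In the shared pairs it was 0.3 in replicate 1 and 0.315 in replicate 2, a mean of 0.307 ± 0.0106 (SD, n = 2), and for shared same-motif pairs over 100 nt apart it was 0.259 ± 0.00495. Over all pairs of replicate 2 the order was the opposite, with 0.225 near and 0.243 over 100 nt, so the levels of near pairs were not shown to be closer or further apart than those of distant pairs. The downstream site was on balance neither higher nor lower: the median downstream minus upstream difference was 0.0601 in replicate 1 and -0.00385 in replicate 2, which differ in sign. Split by spacing, that median was -0.199 and -0.249 in 10 shared pairs at 4 to 6 nt and 0.157 and 0.0791 in 42 at 7 to 20 nt.

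Among same-motif pairs with 50 reads in replicate 2 and 20 in replicate 1 (41 pairs), the 8 with the largest difference in replicate 2 kept their direction in replicate 1. So did 37 of all 41. Tmem223 encodes a mitochondrial membrane protein (chromosome 19, 8748360 to 8749839). Its GGACA at position 547 was at 0.942 over 56 reads and 1 over 84 reads, and the GGACA 10 nt downstream was at 0.143 and 0.164. Rpp25l, related to a subunit of ribonuclease P (chromosome 4), had 0.75 and 0.915 at the GGACC at 487 against 0.208 and 0.154 at the GGACC at 496. Sox2, the neural progenitor transcription factor gene (chromosome 3, 34704554 to 34706610), had 0.838 and 0.804 at the GGACT at 1192 and 0.12 and 0.0744 at the GGACT at 1207. In these 3 genes the upstream site was high and the downstream low, with no overlap between sites across libraries.

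The other 5 ran the opposite way, with the downstream site high. Hmx1, a homeobox gene of eye and ear development (chromosome 5), had 0.191 and 0.0588 at position 1120 and 0.882 and 0.714 at position 1139. Ldhb, a subunit gene of lactate dehydrogenase (chromosome 6, 142435975 to 142453683), was the best covered of them, with 0.147 over 112 reads and 0.179 over 225 reads at 1077 and 0.764 and 0.794 at 1089. Its mean difference was 0.616 ± 0.00177 (SD, n = 2). Ddost, a subunit gene of the oligosaccharyltransferase (chromosome 4), had 0.194 and 0.291 at 725 against 0.861 and 0.904 at 743. Sdc1, the heparan sulfate proteoglycan gene syndecan-1 (chromosome 12), had 0.15 and 0.167 against 0.7 and 0.778. Ist1, an ESCRT-III-related gene (chromosome 8), had 0 and 0.0615 against 0.647 and 0.638. The motifs of these pairs and their spacing are given here in the order named, as the tables hold no base between them.
Tmem223: GGACAnnnnnGGACA
Rpp25l: GGACCnnnnGGACC
Sox2: GGACTnnnnnnnnnnGGACT
Hmx1: GGACTnnnnnnnnnnnnnnGGACT
Ldhb: GGACAnnnnnnnGGACA
Ddost: GGACAnnnnnnnnnnnnnGGACA
Sdc1: GGACCnnnnnnnnnnGGACC
Ist1: AGACTnnnnnnnnnAGACT

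Of the 5 pairs of the same 41 with the smallest difference in replicate 2, 4 are described here. Imp3, a U3 small nucleolar ribonucleoprotein gene, had both sites low, at 0.0690 and 0.0448 (position 500) and 0.0536 and 0.0274 (position 518). Stard7 had both high, at 0.968 and 1 (position 1543) and 0.963 and 0.976 (position 1549). For Sh3bgrl3, a small thioredoxin-fold protein gene, the sites were 0.634 and 0.611 in replicate 2 but 0.864 and 0.586 in replicate 1. Nasp, a histone chaperone gene, had 0.214 and 0.259 in replicate 2 and 0.417 and 0.227 in replicate 1. Closeness in replicate 2 was therefore kept in Imp3 and Stard7 and not in Sh3bgrl3 or Nasp.

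**Figure D4:**
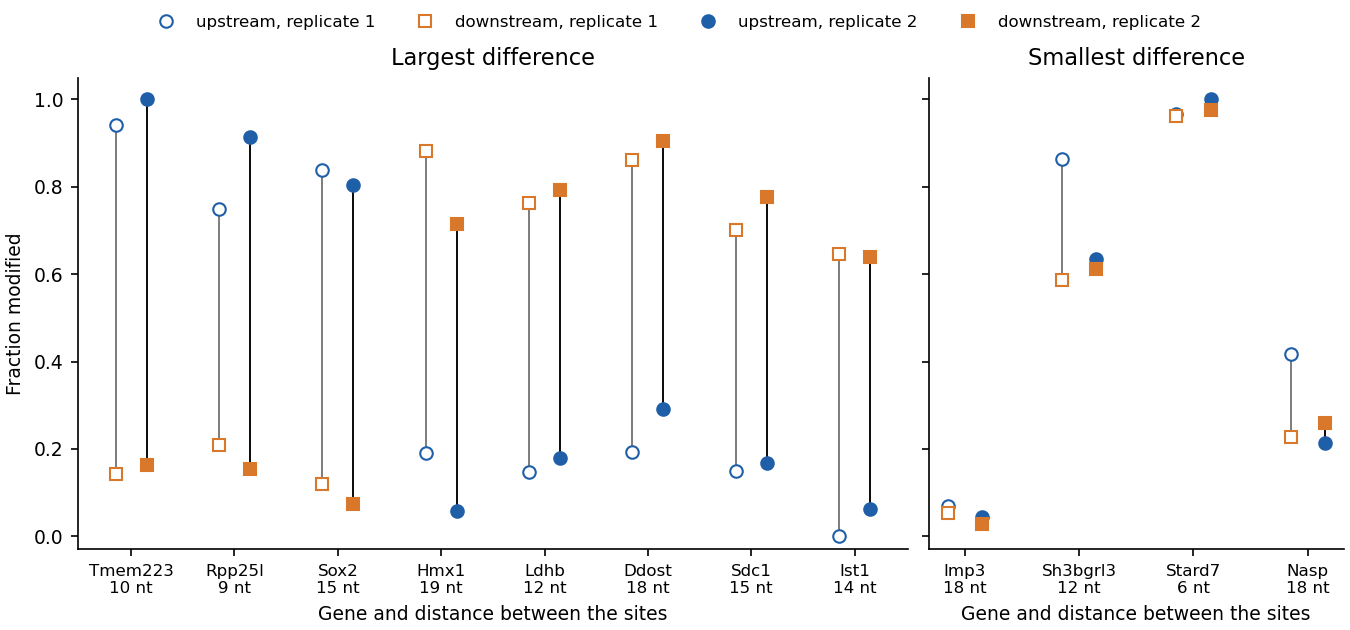
Fraction modified of the upstream site (circles) and downstream site (squares) of named same-motif pairs in replicate 1 (open) and replicate 2 (filled), joined by a line, with the distance in nt under each gene; among pairs with 50 reads in replicate 2 and 20 in replicate 1, the left panel has the 8 largest differences of replicate 2 and the right panel 4 of the 5 smallest. The left panel shows the same order of sites in both libraries for every gene, with Tmem223, Rpp25l and Sox2 high upstream and the others high downstream.

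Both sites were at 0.5 or more in 96 of the 667 pairs of replicate 2 and both under it in 234, while 337 pairs had a site on each side. The pairs with the highest lower fraction, among those with 50 reads in replicate 2 and 20 in replicate 1, included those of Stard7, Rpl7a and Armc10, given above, and of Cdc42, the small GTPase gene of cell polarity (chromosome 4). Its GGACA at 1204 was at 0.841 over 109 reads and 0.804 over 237 reads, and that at 1223 was at 0.95 and 0.908. In these 4 genes both sites stayed above 0.8 in both libraries.

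GGACA was the higher site in most pairs that joined it to another motif, in either order. In replicate 2 it was the higher in 83 of 102 pairs with AGACT (81.4%, 72.7% to 87.7%), 76 of 92 with GGACC (82.6%, 73.6% to 89.0%) and 99 of 123 with GGACT (80.5%, 72.6% to 86.5%). Over pairs at any distance GGACA was the higher in 77.2%. In the 86 shared pairs the share was 84.9% in replicate 1 and 83.7% in replicate 2. At 4 to 6 nt the counts differed with the order of the motifs. With GGACA upstream it was the higher in 20 of 22 pairs with AGACT, 11 of 11 with GGACC and 5 of 5 with GGACT, and with GGACA downstream in 1 of 4 with AGACT and 3 of 5 with GGACT. At 7 to 20 nt the counts were 30 of 38, 34 of 42 and 44 of 55 with GGACA upstream, and 32 of 38, 31 of 39 and 47 of 58 with it downstream. No test of that difference was made.

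With the same coverage limits, the largest gaps in favour of GGACA beside those of Rtl8b and Sf3b1 included Smim30, a small membrane protein gene (chromosome 6), with 0.829 and 0.859 at the GGACA at 372 and 0.0968 and 0.0508 at the GGACT at 391. The opposite order was found in Sec61a1, the pore subunit gene of the endoplasmic reticulum translocon (chromosome 6), where the GGACT at 3076 was at 0.833 and 0.861 and the GGACA at 3089 at 0.13 and 0.152. Its mean difference was -0.706 ± 0.00424 (SD, n = 2), downstream minus upstream. Rab8a, a GTPase gene of vesicle transport (chromosome 8), had a low GGACA at 0.0323 and 0.0408 beside a GGACT at 0.278 and 0.25. Ncbp2, a cap-binding complex gene (chromosome 16), had 0.409 at its GGACA and 0.657 at its GGACT in replicate 2 but 0.619 and 0.615 in replicate 1, so its order was not kept.

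Another such pair is listed under the overlapping genes Naa12 and Txnl4a on chromosome 18, with the GGACA at 0.04 and 0.0217 and the GGACC at 0.667 and 0.656 under Naa12, and with 0.0204 and 0.0667 against 0.567 and 0.489 under Txnl4a. These may be the same place counted under 2 names. Aars with Exosc6 (8 and 12 nt) and Chtf8 with Derpc (6 and 12 nt) each repeated 2 pairs of the same spacing and motifs in this way, so that 1 of the 101 close pairs may be a repeat. This makes 3 such gene pairs among the 548 genes. Only genes with overlapping coordinates were compared, so repeats between similar genes elsewhere were not searched for. Tmsb10 and Tmsb10b, for example, each had a pair at 17 nt, and Arxes1 and Arxes2 each had a pair at 10 nt.

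Whether neighbours were high or low together was described with motif medians subtracted. On that scale the Pearson's r between upstream and downstream fractions was 0.0407 across the 667 pairs of replicate 2. Across the shared pairs it was 0.0604 in replicate 1 and 0.0687 in replicate 2. For consecutive pairs 21 to 100 nt apart it was 0.0179 (2629 pairs). The same site compared between libraries gave an r of 0.954 for the upstream sites and 0.926 for the downstream sites of the 190 pairs. These are descriptions across pairs that share library, reads and transcript. In same-motif pairs the r was 0.238 in replicate 2 (183 pairs), and 0.17 and 0.166 in the 52 shared pairs. Same-motif pairs 21 to 100 nt apart had 0.104 in replicate 2 (793 pairs), and 0.092 and 0.103 in the 231 shared pairs. Further apart the r in replicate 2 was 0.0426 at 101 to 500 nt (1449 pairs) and 0.123 over 500 nt (589 pairs). Same-motif pairs at 4 to 6 nt had a higher r, 0.38 in 32 pairs of replicate 2 and 0.769 and 0.662 in the 10 shared pairs, and those at 7 to 20 nt had 0.24 in 151 pairs and 0.0803 and 0.107 in the 42 shared pairs. By motif, pairs of GGACT had 0.322 over 57 pairs of replicate 2 and 0.479 and 0.507 over 18 shared pairs. Pairs of GGACA had 0.215 over 69 pairs of replicate 2 but -0.202 and -0.287 over 22 shared pairs, so the sign depended on which pairs were taken.

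Runs of more than 2 neighbouring sites were few. Of the chains of consecutive pairs, 574 had 2 positions, 40 had 3, 3 had 4 and 1 had 5. Jund, an AP-1 transcription factor gene (chromosome 8, 71151599 to 71153265), had 4 sites over 40 nt with 50 reads in replicate 1 and 81 or 82 in replicate 2. From position 1189 to 1229 they were at 0.103, 0.529, 0.45 and 0.643 in replicate 1 and at 0.206, 0.482, 0.432 and 0.717 in replicate 2, the same order in both. Ublcp1 (chromosome 11) had 4 sites over 32 nt, from position 1695 to 1727, at 1, 0.786, 0.588 and 1 in replicate 1 and at 0.978, 0.6, 0.333 and 1 in replicate 2. Its AGACT at 1708 was the lowest in both libraries, between GGACA sites.

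Mepce, the capping methyltransferase gene of the 7SK RNA (chromosome 5), had 4 sites over 39 nt at 0.222, 0.556, 0.944 and 0.0588 in replicate 2, with 20 reads, and the first 3 of them at 0.125, 0.8 and 0.9 over 11 reads in replicate 1. That chain could not be repeated at 20 reads.

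Most genes held 1 pair (445 of 548), 89 held 2, 12 held 3, and 2, Mepce among them, held 4. Nr2f6, an orphan nuclear receptor gene (chromosome 8, 71826767 to 71834604), had 3 pairs along its transcript, all shared. At positions 398 and 405 the order was high then low, with 0.75 and 0.682 at the GGACT and 0.0455 and 0.161 at the GGACC. At 857 and 875 it was low then high, with 0.222 and 0.101 at the GGACT and 0.92 and 0.774 at the GGACA. The AGACT pair at 1946 and 1966 had 0.424 and 0.33 against 0.109 and 0.247. The same transcript thus carried both orders.

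Armc10 also had 3 pairs. The high AGACT at 1413 of its overlap lay 19 nt before a GGACT at 1432 with 0.136 and 0.0633, so that 3 sites within 23 nt ran from over 0.95 to under 0.14 in each library. Rhob, a small GTPase gene (chromosome 12), had 3 shared pairs with GGACA upstream. The one at 638 and 647 had 0.941 and 0.955 against 0.286 in both libraries, the one at 554 and 572 had 0.167 and 0.222 against 0 and 0.0714, and that at 1066 and 1076 had 0.5 and 0.781 against 0.286 and 0.0714. The GGACA of the same gene was therefore near 1 at 638 and below 0.25 at 554 in both libraries.

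A set of 8 gene lists were set beside all genes, of which 548 of the 3919 with a site of 20 reads held a pair (13.98%). In the eye-field and retinal progenitor list 1 of 9 genes with a site held a pair, and this was Sox2. Beside its GGACT pair it had a GGACC at 824 with 0.263 and 0.165 and a GGACA at 833 with 0.412 and 0.557. Among orphan nuclear receptors 2 of 3 genes held pairs. In Nr2f1, a regulator of eye and forebrain patterning (chromosome 13), the AGACT at 2494 was at 0.31 and 0.489, the GGACT at 2503 at 0 and 0.0240, and the GGACT at 2520 at 0.0714 and 0.0938. The middle site was the lowest in both libraries, over 70 and 156 reads.

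In the list of the m6A machinery 3 of 13 genes held a pair, none at 20 reads in replicate 1. Rbm15b, whose product recruits the methyltransferase complex to RNA, had 3 sites at 0.885, 1 and 0.667 in replicate 2 (30 or 31 reads) and at 0.818, 1 and 0.833 in replicate 1 (11 reads). Wtap, a regulatory subunit of the complex, had an AGACT pair 6 nt apart at 0.455 and 0.0714 in replicate 2 over 48 reads and at 0.167 and 0.333 in replicate 1 over 17 reads, so the order differed between libraries. Virma, its scaffold subunit, had 0.05 and 0.188 over 23 reads in replicate 2.

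Glycolysis had pairs in 2 of 10 genes, Ldhb and Slc2a1. Slc2a1, the glucose transporter gene, had 0.345 and 0.419 at a GGACC and 0.576 and 0.638 at the GGACA 14 nt downstream. The Wnt and catenin list had 2 of 8, Cdh2 and Fzd1. Cdh2, the N-cadherin gene (chromosome 18), had 0.158 and 0.128 at a GGACT and 0.842 and 0.837 at a GGACA 13 nt on, and Fzd1, a Wnt receptor gene, had 0.0488 and 0.745 in replicate 2 alone. Chaperones had 1 of 13, the endoplasmic reticulum gene Hspa5, whose 2 pairs were low throughout, between 0.0994 and 0.224. Cell cycle had 1 of 15, the replicative helicase gene Mcm3 (0.0476 and 0.172 against 0.381 and 0.25), and the Notch, Hes and Id list had none of 6. With so few genes, no list was set apart from the 13.98% of all genes.

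Among pairs 7 to 20 nt apart, 214 of 566 (37.8%) were spaced by a multiple of 3, which 4 of these 14 spacings are. At 21 to 50 nt the share was 39.2%. Whether the pairs lay in coding sequence was not analysed here. Lower coverage in a pair had a median of 35 reads in replicate 2 and 32.5 in the shared pairs of replicate 1, which limits what a single pair shows, and 138 of the shared pairs had 50 reads in replicate 2.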

How the data were processed

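The 2 direct RNA libraries of poly(A) RNA were used, 1 plus table each, and the minus tables were not used here. Coverage is a deposited whole-number read count per position, and no position under 5 reads was listed in either table. Fraction modified is the authors' deposited fraction, from 0 to 1, and its denominator is not given in the file headers, so no interval was set on a single fraction. The modification caller, aligner and thresholds are not given in the sources used here, nor is whether positions were listed only once accepted. The submitters' processing notes name mm10, yet 20 of 542 matched gene names (3.69%) started within 1000 bases of the RefSeq entry for GRCm38.p6, so the build of the deposited coordinates is not settled and no placement in coding sequence or untranslated regions was made. Positions are those of the transcript, counted 5′ to 3′. Entries without a gene name were left out (219 in replicate 1 and 533 in replicate 2).

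Pairs, motif medians, shares with 95% Wilson intervals (counting error only) and correlations were computed with Python 3.11.15, pandas 2.3.3, numpy 2.4.6, scipy 1.17.1 and matplotlib 3.10.9. The pairing was tested on simulated data. Motif medians used all positions of 20 reads of a library, 6463 in replicate 1 and 16212 in replicate 2. Some named pairs had to have 50 reads in replicate 2 and 20 in replicate 1. They were the 8 largest and 5 smallest same-motif differences and the 5 with the highest lower fraction. Under the same limit came the 5 with another motif furthest above GGACA, the 3 opposite and the 3 deepest at each touching spacing. The 3 longest chains, the 5 genes with most pairs and the pairs of the other gene lists needed 20 reads in replicate 2 only. Every eye-field pair with 20 reads in both libraries was also named. Genes beyond these, at touching spacings, at 6 nt, Senp3 and Rhob, were chosen after their values were seen. Coverage minimum, transcript choice, distance limit, call threshold and motif adjustment were varied. The members, gene lists and tests were chosen with earlier results of these data known. Some pairs that these choices name are not reported here.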

Additional observations from a re-analysis of the deposited data

How the results depend on the processing

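No paired analysis was possible because both libraries belong to 1 group, so there were no groups to compare with the replicate number as a block. The exact permutation test given above paired 2 values within each library, not groups. The number of pairs was 1260 with 10 reads, 201 with 50 reads, 257 up to 10 nt and 1059 up to 30 nt. The share of shared pairs differing by more than 0.2, 69.7% as the mean of both libraries, was 66.3% up to 30 nt, 81.1% for differences over 0.1 and 45.0% for those over 0.4. The share of called differences with the same sign was 100% with 50 reads, up to 10 nt and for differences over 0.4. The same-motif downstream minus upstream median, 0.0281 over both libraries, turned to -0.11 with 50 reads, -0.0309 up to 10 nt and -0.00385 without replicate 1, and the cause was not tested. GGACA was the higher in 84.3% of its pairs, in 82.3% with 10 reads, 89.5% with 50 reads, 89.4% up to 10 nt, 80.6% up to 30 nt and 82.6% at 7 to 20 nt. The motif-adjusted correlation, 0.0645, was -0.0958 with 50 reads, 0.0152 up to 10 nt, 0.0570 up to 30 nt, -0.0230 without motif adjustment and 0.168 in same-motif pairs. Near same-motif pairs exceeded those over 100 nt apart by 0.0485, which became -0.00575 up to 30 nt, 0.005 with 10 reads (-0.0261 in replicate 2) and 0.0867 with 50 reads. The median absolute difference, 0.362, was 0.297 up to 30 nt and 0.339 with 10 reads, and that of same-motif pairs, 0.307, was 0.253 and 0.263.

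Leaving out either library gave 0.356 to 0.367 for the median absolute difference, 67.4% to 72.1% for the share over 0.2, 0.3 to 0.315 for same-motif pairs, -0.00385 to 0.0601 for their downstream minus upstream median, 83.7% to 84.9% for GGACA, 0.0604 to 0.0687 for the correlation, 0.0446 to 0.0525 for near minus far and 0.297 to 0.314 for the upstream level at 4 to 6 nt. The latter, 0.306, was 0.307 with 10 reads, 0.325 with 50 reads, 0.308 over all transcripts and 0.249 in pairs of 10 to 19 reads. Its alternatives and those at 7 to 20 nt were chosen after seeing the data. Depth limits the repeat: only 190 of 667 pairs had 20 reads in replicate 1.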
